A study of Danio rerio with 12 samples.

Results

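The genes described here belong to families that move calcium and other ions across cell membranes, store calcium or regulate these processes. They cover the calcium stores of the sarcoplasmic reticulum, calcium, sodium and potassium channels, the sodium-potassium pump, gap junction connexins and the calmodulin-dependent kinase CaMKII. They were chosen by symbol: every gene whose name begins with ryr, atp2a, pln, casq, cacn, slc8a, kcn, scn plus a digit, hcn, gja to gjd, cx plus a digit, camk2, atp1a or atp1b, and in addition rrad. The platform annotation gave 54 such genes out of 8793 with a probe set of a single gene, and each is represented by its brightest probe set, by the mean of all 12 arrays. Of these, 7 genes had more than 1 probe set, and the 54 genes had 63 in all. No ryanodine receptor gene was among the 54. The exchanger genes slc8a1a and slc8a1b, the sodium channel gene scn5lab and the pacemaker channel gene hcn4 had no probe set annotated to them alone. Nor had the potassium channel genes kcnq1, kcnj2a and kcnj2b. All these genes count here as not measured, and their responses are unknown. Of the 15502 probe sets tested 4572 had no gene annotated, and 1 probe set of several genes included a matching symbol.

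In a heart muscle cell, depolarisation opens L-type calcium channels, and the calcium that enters releases more from the sarcoplasmic reticulum through ryanodine receptors. The SERCA pump, held back by phospholamban, returns it to the store, where calsequestrin binds it. Sodium and potassium channels shape the action potential, the sodium-potassium pump keeps up the gradients behind it, and connexins pass it from cell to cell.

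RNA came from hearts of adult, sexually mature zebrafish, and each of 4 groups has 3 Affymetrix Zebrafish Genome Arrays. Hearts of wild-type (WT) fish of the AB line were either unamputated and untreated or taken 7 days after amputation. The dnHIF1a hearts came, in the same 2 states, from fish that carry the transgenes cmlc2a:LrL:dnHIF1a, cmlc2a:LnL:GFP and cmlc2a:Ert2-Cre-Ert2. In these names the heart muscle promoter cmlc2a precedes a dominant negative HIF1a, GFP and a tamoxifen-dependent Cre. An element named LrL stands between cmlc2a and dnHIF1a, and one named LnL between cmlc2a and GFP. The sample titles call these fish dnHIF1a-expressing. The labels give neither the strain background of that line nor any tamoxifen treatment, so a genotype difference is one between these lines. Whether each array is 1 fish or a pool is also not given, so p-values measure only the spread between these samples. The design compares amputated with unamputated hearts within each genotype, in a series on hypoxia and the regrowth of heart muscle.

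Values are log2 expression per probe set. A difference between groups is that of their means on the log2 scale, given ± limma's standard error, with n = 3 in each group. A gene is called where limma's adjusted p, Benjamini-Hochberg over all 15502 probe sets tested, is under 0.05. Array medians lay between 5.55 and 5.59, and replicate arrays correlated at 0.992 to 0.996. No background level comes with the values, so a difference is left without a size if either mean is under 4. The mean was under 4 in all 4 groups for 7 of the genes (atp1a1a.5, cacng1a, camk2d1, gja13.1, kcnb2a, kcnd1 and kcnk1b) and in 3 groups for atp1b2b, cacng2b and scn8aa. The other 44 read 4 or more in every group. A level of 1 probe set cannot be set against that of another, and close copies such as atp1a1a.2 to atp1a1a.5 or atp2a1 and atp2a1l may share signal, since probe sequences were not analysed here.

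Marker lists describe what else moved in the same hearts. The 13 measured cardiomyocyte markers had a mean of 12.05 to 12.34 on the 12 arrays, with myl7, the muscle light chain gene that marks heart muscle, at 14.58 to 14.80. After amputation 1 of the 13 was called higher and 2 lower in WT (7.69% and 15.4%, beside 11% and 11.8% of all probe sets). In dnHIF1a 2 were called higher and 0 lower (15.4% and 0%, beside 5.66% and 4.09%). Between the lines 5.82% of all probe sets were called higher and 5.56% lower in unamputated dnHIF1a hearts, and 6.15% and 6.75% in amputated ones. In the WT comparison of amputated with unamputated hearts 11 of 18 erythrocyte markers rose and 2 fell, and their mean ran from 7.91 to 8.32 on unamputated and 8.65 to 9.39 on amputated WT arrays. In the dnHIF1a line none of the 18 rose and 1 fell, with means of 8.18 to 8.75 and 8.21 to 8.99. Of 12 epicardium and fibroblast markers 10 rose in each line. Of 6 smooth muscle and bulbus markers 4 were called higher in unamputated dnHIF1a than in unamputated WT hearts, among them acta2 and rgs5a. So were 6 of 12 epicardium and fibroblast markers. Of 15 macrophage and leukocyte markers 9 rose in WT and 12 in dnHIF1a after amputation, and 10 were lower in unamputated and 8 in amputated dnHIF1a than in WT hearts of the same state. Of 7 endothelium and endocardium markers 0 rose and 2 fell in WT, and 0 rose and 1 fell in dnHIF1a. Their means were 7.23 to 7.31 on unamputated and 6.93 to 7.03 on amputated WT arrays. On dnHIF1a arrays these were 7.36 to 7.38 before and 7.17 to 7.3 after amputation. The means of the 19 neuron and glia markers stayed between 4.66 and 4.79 on all arrays. Of these 19, 2 were called higher and 1 lower in WT, and 1 higher and 0 lower in dnHIF1a. In heart RNA fewer cells of a type and less RNA per cell cannot be told apart.

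**Figure D1:**
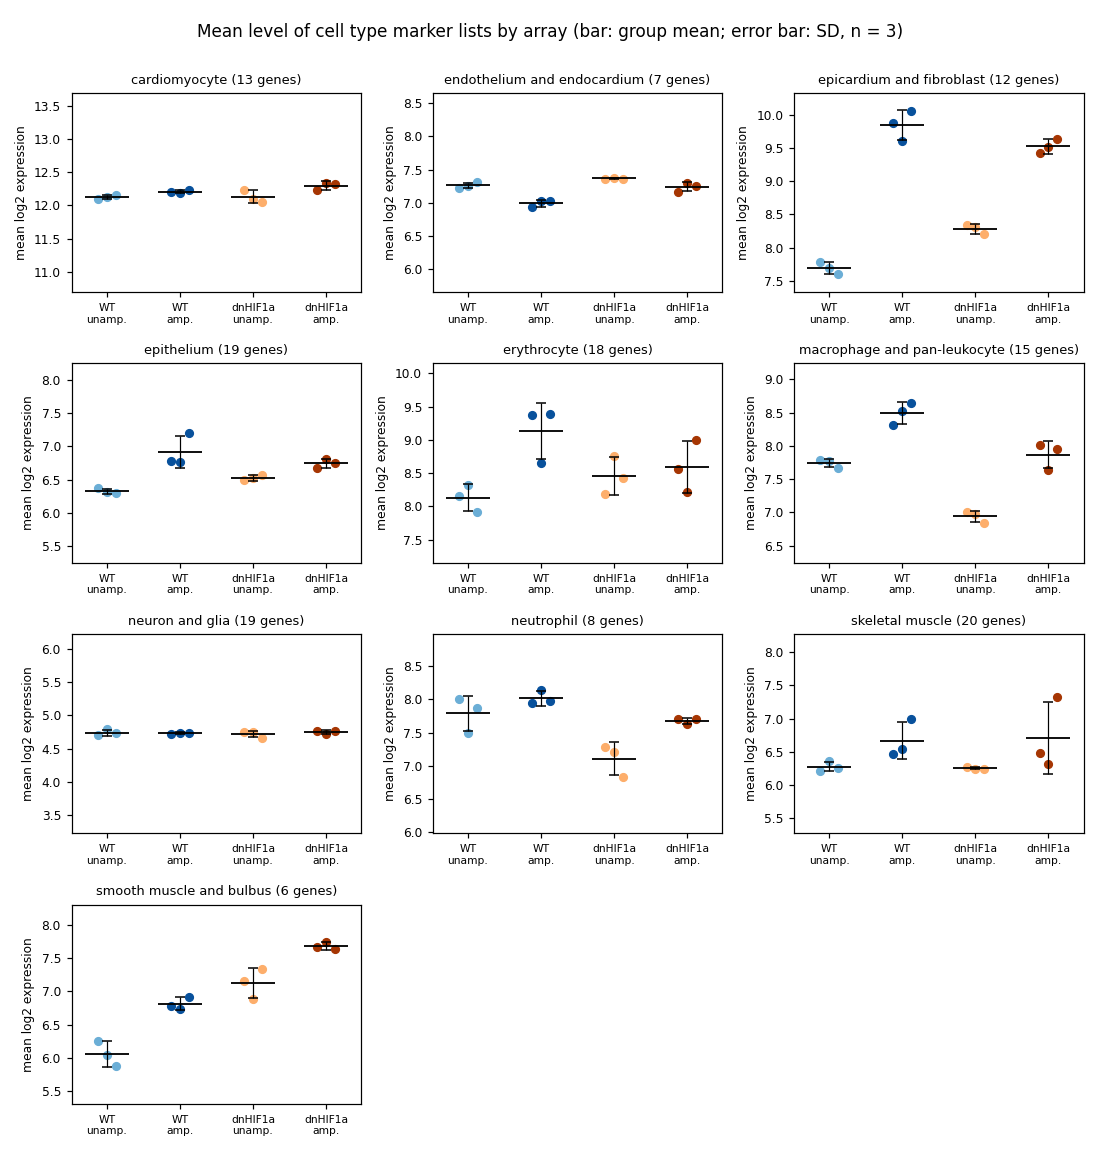
Mean log2 expression of 10 cell type marker lists on each array (y axis, 3 log2 units high in every panel) by group (x axis); points are arrays, bars group means and error bars SD, n = 3. Erythrocyte means of amputated WT arrays (8.65 to 9.39) lie above those of unamputated WT arrays (7.91 to 8.32), and smooth muscle and bulbus means of unamputated dnHIF1a arrays (6.89 to 7.34) above those of unamputated WT arrays (5.87 to 6.25).

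Amputated and unamputated WT hearts were compared first. After amputation 3 of the 54 genes rose and 6 fell, with the connexin genes gja1b and gjc4b up and the channel regulator rrad, the potassium channel gene kcnh6a and the sodium channel subunit gene scn3b down. That is 16.7% of the genes called, against 22.8% of all probe sets. By direction it is 5.56% against 11% of all probe sets for higher and 11.1% against 11.8% for lower, so neither share stands above the background. Of all 8793 genes, each at its brightest probe set, 11.7% were called higher and 14.5% lower. At an unadjusted limma p under 0.05, 4 of the 54 were higher (7.41%, against 15.3% of all probe sets) and 17 lower (31.5%, against 21.0%). The median difference of the 54 genes was -0.078, beside -0.053 over all probe sets. With 3 arrays a group, groups that do not overlap are common. In the WT response 31.5% of the 54 genes and 35.7% of all probe sets had such groups, and in dnHIF1a 25.9% and 30.5%. Between the lines the shares were 29.6% and 26.9% in unamputated and 22.2% and 31.6% in amputated hearts.

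The gene rrad encodes a small GTPase that, in mammals, binds the beta subunit of L-type calcium channels and reduces their current. It read 10.15, 9.85 and 9.78 on the unamputated WT arrays 1 to 3 and 8.28, 7.86 and 8.13 on the amputated ones. In dnHIF1a hearts it read 8.99, 8.48 and 9.25 before and 7.86, 8.33 and 8.15 after amputation. Unamputated WT hearts had the highest values of the 4 groups, amputated hearts of both lines covered the same range, and unamputated dnHIF1a hearts lay between. Amputation was followed by a 3.57-fold fall in WT (-1.84 ± 0.19, limma adjusted p = 3.45e-05) and a 1.73-fold fall in dnHIF1a (-0.79 ± 0.19, limma adjusted p = 0.0179). The dnHIF1a call was lost when dnHIF1a unamputated array 1 (-0.75, limma adjusted p = 0.0643), dnHIF1a unamputated array 3 (-0.62, 0.0695) or dnHIF1a amputated array 1 (-0.67, 0.0814) was left out.

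The difference of these responses was 1.04 ± 0.26 for rrad, which did not pass the test (limma adjusted p = 0.0617). It was called with a repeated quantile normalization (1.05, limma adjusted p = 0.0483) and without dnHIF1a unamputated array 3 (1.22, limma adjusted p = 0.0279). Over all single arrays left out it ran from 0.83 to 1.22, with limma adjusted p up to 0.146. Before amputation rrad was 2.03-fold lower in dnHIF1a than in WT hearts (-1.02 ± 0.19, limma adjusted p = 0.00344), and after it the genotypes differed by 0.02 ± 0.19 (limma adjusted p = 0.959). These comparisons share arrays and are not independent of each other.

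The calcium channel subunits themselves gave no call. The gene of the L-type pore, cacna1c, read between 5.80 and 6.02 on all 12 arrays, with -0.08 ± 0.073 in WT and 0.00 ± 0.073 in dnHIF1a. The beta subunit gene cacnb2b read -0.06 in both lines, and the T-type pore gene cacna1ha -0.19 in WT and -0.26 in dnHIF1a, with limma adjusted p between 0.327 and 1 for these 3 genes in both responses. With the erythrocyte marker mean as a covariate cacna1ha was called in WT (-0.69, limma adjusted p = 0.0345). The genes cacng1a and cacng2b, of gamma-type subunits, were not called in any comparison. The sodium-calcium exchanger gene slc8a4b read 0.01 ± 0.10 in WT and -0.23 ± 0.10 in dnHIF1a (limma adjusted p = 0.97 and 0.19), and was called higher in unamputated dnHIF1a hearts without WT unamputated array 3 (0.37, limma adjusted p = 0.0277).

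Among the 13 connexin genes both risers moved in both lines. The gene gja1b, or cx43, encodes a widely expressed gap junction protein that zebrafish also need for fin growth. It read 6.33, 5.58 and 5.74 on unamputated and 6.93, 6.81 and 7.09 on amputated WT arrays. On dnHIF1a arrays it read 6.65, 6.39 and 6.52 before and 7.61, 7.51 and 7.38 after amputation. Each amputated group lay wholly above its unamputated counterpart, and the amputated dnHIF1a arrays were the highest of all 12. It rose 2.08-fold in WT (1.06 ± 0.16, limma adjusted p = 0.000592) and 1.97-fold in dnHIF1a (0.98 ± 0.16, limma adjusted p = 0.00202).

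The second, gjc4b, encodes a connexin of the gamma group. It read 4.49, 4.52 and 4.49 on unamputated and 5.58, 5.44 and 5.77 on amputated WT arrays, and 4.54, 4.84 and 4.68 against 5.45, 5.35 and 5.64 on dnHIF1a arrays. All 6 amputated arrays lay above all 6 unamputated ones. The rise was 2.14-fold in WT (1.1 ± 0.10, limma adjusted p = 1.91e-05) and 1.73-fold in dnHIF1a (0.79 ± 0.10, limma adjusted p = 0.000481). The test of the difference of responses between the lines called neither connexin gene (-0.08 ± 0.22 for gja1b, limma adjusted p = 0.893, and -0.30 ± 0.15 for gjc4b, limma adjusted p = 0.315). Epicardium and fibroblast markers moved the same way, from 7.61 to 7.78 on unamputated to 9.60 to 10.05 on amputated WT arrays and from 8.20 to 8.34 to 9.42 to 9.64 on dnHIF1a arrays. Their part in the connexin result was not tested.

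Of the other 11 connexin genes only gjd2b was called, in the WT response. At an unadjusted limma p under 0.05, 5 of the 13 connexin genes were lower in WT (38.5%, against 21.0% of all probe sets). At that threshold 2 were higher (15.4%, against 15.3%). The gene gjd2b, of a connexin of electrical synapses, fell in WT from 5.41 to 5.74 to 5.19 to 5.31 (-0.29 ± 0.088, limma adjusted p = 0.0319), a call lost without WT unamputated array 2 (-0.19, 0.111) or WT amputated array 1 (-0.26, 0.105) or 3 (-0.30, 0.0657). The gene gja3, of a lens and heart connexin, read -0.22 ± 0.09 in WT (limma adjusted p = 0.0943), and was called without WT unamputated array 1 (-0.31, limma adjusted p = 0.0255), while it was -0.16 without WT unamputated array 2. In dnHIF1a it read -0.08 (limma adjusted p = 0.66). The remaining 9 (gja2, gja8b, gja9a, gja10b, gja13.1, gjb1a, gjb8, gjb9b and gjc4a.1) were called in no comparison. With 1 array left out, gja2 fell in WT (-0.32 without WT unamputated array 1, limma adjusted p = 0.0246), and between amputated lines gja9a was lower (-0.29 without dnHIF1a amputated array 3, 0.0426) and gjc4a.1 higher (0.32 without WT amputated array 2, 0.0469).

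**Figure D2:**
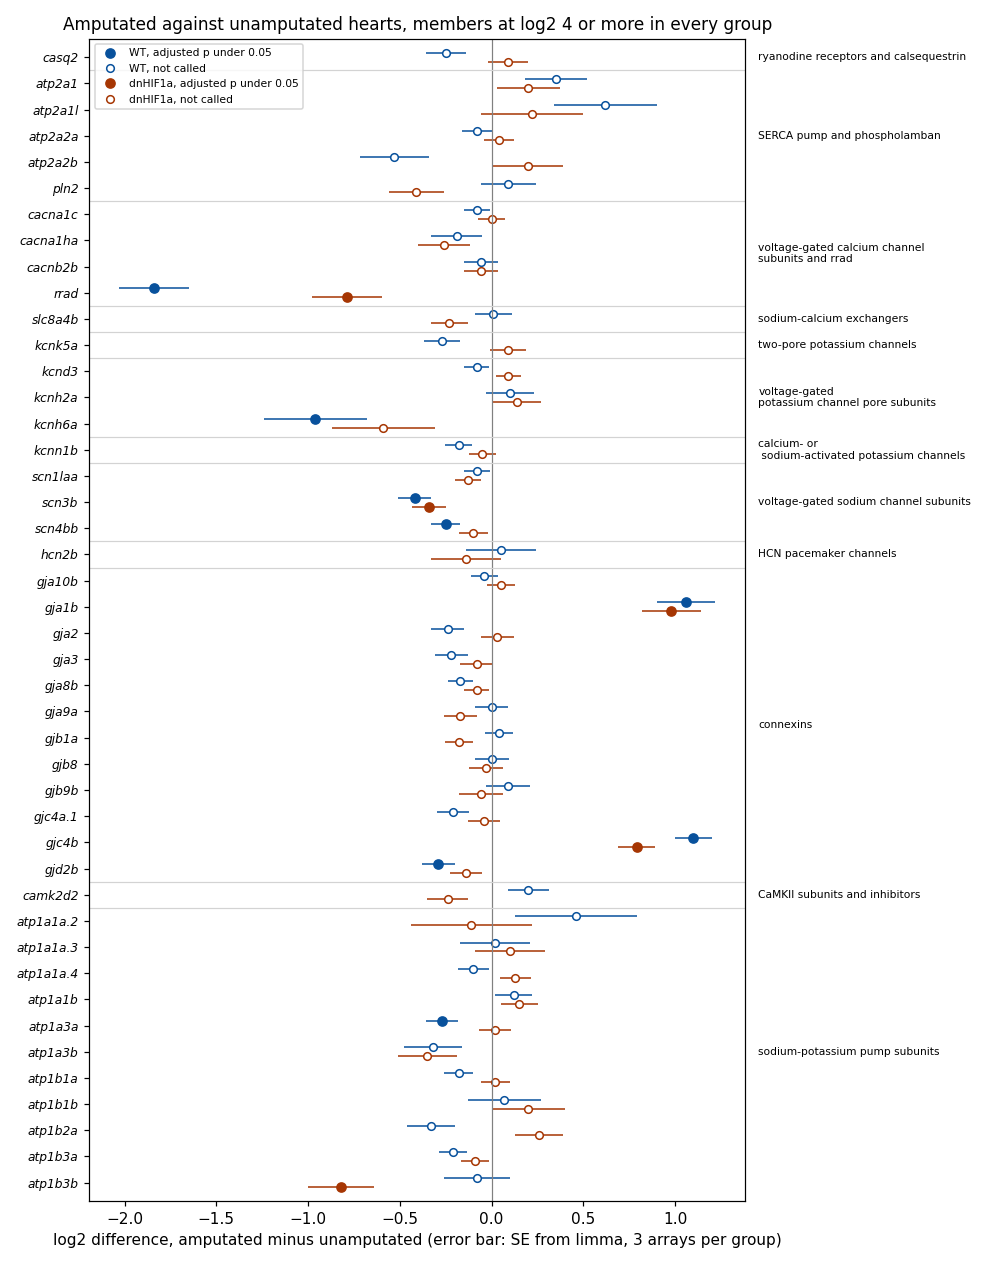
Log2 difference of amputated minus unamputated hearts (x axis) for the 44 genes at 4 or more in every group, ordered by role (y axis), in WT (blue) and dnHIF1a (brown); filled points have an adjusted p under 0.05 and error bars are the limma SE. The points of gja1b and gjc4b lie at 0.79 to 1.1 in both lines, and rrad lies at -1.84 in WT and -0.79 in dnHIF1a.

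Of the potassium channel genes, kcnh6a encodes the ERG channel of the zebrafish heart, which carries the rapid repolarising current. It read 9.80, 8.42 and 8.36 on unamputated and 8.0, 7.67 and 8.02 on amputated WT arrays, and 8.72, 8.63 and 8.62 against 8.01, 8.16 and 8.02 on dnHIF1a arrays. Every amputated array lay below every unamputated one, and WT unamputated array 1 lay more than 1 log2 unit above the rest. In WT kcnh6a fell 1.95-fold (-0.96 ± 0.28, limma adjusted p = 0.0272). Without WT unamputated array 1 the fall was -0.49, with a smaller adjusted p of 0.00679. Without WT amputated array 1 (-1.02), 2 (-0.85) or 3 (-1.03) the call was lost, with limma adjusted p of 0.056, 0.0865 and 0.052. It was also lost with the trended and robust prior (-0.96, limma adjusted p = 0.0539) and with only the groups compared (-0.96, 0.098).

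In dnHIF1a the same gene did not pass the test (-0.59 ± 0.28, limma adjusted p = 0.234). Without WT unamputated array 1, which widens the spread that all groups share, it did (-0.59, limma adjusted p = 0.00183), and so it did where the dnHIF1a arrays alone were fitted (limma adjusted p = 0.00158). The difference of responses was 0.37 ± 0.40 (limma adjusted p = 0.687). On the same array the pacemaker channel gene hcn2b also read highest, at 9.21 against 8.28 to 8.82 on the other 11, as did the pump gene atp2a2b, at 7.18 against 5.97 to 6.57. Neither hcn2b (0.05 ± 0.19 in WT and -0.14 ± 0.19 in dnHIF1a) nor any of the other potassium channel genes (kcnb2a, kcnd1, kcnd3, kcnh2a, kcnk1b, kcnk5a and kcnn1b) was called in any comparison. Without WT unamputated array 1 hcn2b was called higher in the WT response (0.34, limma adjusted p = 0.0424) and in unamputated dnHIF1a hearts (0.38, 0.0437), and kcnk5a, of a leak channel, lower in WT (-0.33, 0.0458). The gene kcnd3, of a transient outward channel, differed between amputated lines by up to 0.27 under 4 alternatives that called it, among them that without dnHIF1a amputated array 2 (limma adjusted p = 0.0345). The gene kcnh2a, of a related ERG channel, read 0.10 in WT and 0.14 in dnHIF1a (limma adjusted p = 0.609 and 0.59).

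Sodium channel genes were represented by pore genes scn1laa and scn8aa and by auxiliary beta subunit genes scn3b and scn4bb. The gene scn3b read 10.67, 10.64 and 10.61 on unamputated and 10.47, 10.13 and 10.07 on amputated WT arrays. On dnHIF1a arrays it read 10.33, 10.25 and 10.31 before amputation, and after it 9.96 ± 0.05 (mean ± SD, n = 3). The groups did not overlap in either line, and the unamputated WT arrays were the highest of the 12. It fell 1.33-fold in WT (-0.42 ± 0.092, limma adjusted p = 0.00677) and 1.27-fold in dnHIF1a (-0.34 ± 0.092, limma adjusted p = 0.0364), and the difference of responses was 0.08 ± 0.13 (limma adjusted p = 0.811). The dnHIF1a call was lost without dnHIF1a unamputated array 1 (-0.32, limma adjusted p = 0.11), 2 (-0.36, 0.0718) or 3 (-0.33, 0.098) and without dnHIF1a amputated array 1 (-0.36, 0.0762), 2 (-0.34, 0.0875) or 3 (-0.32, 0.117).

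The gene scn4bb read 4.54, 4.51 and 4.69 on unamputated and 4.26, 4.35 and 4.38 on amputated WT arrays, which did not overlap. Its fall (-0.25 ± 0.08, limma adjusted p = 0.0408) was lost without any of 7 arrays. These were WT unamputated arrays 1 (-0.27, limma adjusted p = 0.0527) and 3 (-0.19, 0.134), WT amputated arrays 1 (-0.22, 0.13), 2 (-0.26, 0.0719) and 3 (-0.28, 0.0613), dnHIF1a unamputated array 2 (-0.25, 0.0504) and dnHIF1a amputated array 3 (-0.25, 0.0535). It was also lost with a repeated quantile normalization (-0.21, limma adjusted p = 0.0714) and with median centring (-0.24, 0.0523). Neither of the pore genes scn1laa and scn8aa was called, and scn5lab was not measured.

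With the erythrocyte covariate the WT counts became 2 higher and 2 lower (7.41% of the genes, beside 4.28% of all probe sets, against 16.7% and 22.8% without it), and the calls of gja1b, gjc4b and rrad held, beside that of cacna1ha. Among those lost, scn3b read -0.45 (limma adjusted p = 0.139) and kcnh6a -1.12 (limma adjusted p = 0.215), so their differences were no smaller under the covariate than without it. The erythrocyte means of the WT groups are separate, so in WT the covariate and amputation are hard to tell apart.

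Amputated and unamputated dnHIF1a hearts gave 2 genes higher and 3 lower of 54. That is 9.26% called, beside 9.75% of all probe sets, with 3.7% against 5.66% higher and 5.56% against 4.09% lower, so the shares were near the background. The median was -0.042, beside -0.013 over all probe sets. Both risers and 2 of the fallers are the connexin genes, rrad and scn3b described above. The fifth, atp1b3b, encodes a beta subunit of the sodium-potassium pump, the part that carries the catalytic subunit to the membrane.

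On dnHIF1a arrays atp1b3b read 9.13, 9.82 and 9.40 before and 8.42, 8.70 and 8.78 after amputation, a fall of 1.76-fold (-0.82 ± 0.18, limma adjusted p = 0.014). On WT arrays it read 8.13, 8.52 and 8.72 before and 8.22, 8.58 and 8.33 after (-0.08 ± 0.18, limma adjusted p = 0.784). Only the unamputated dnHIF1a arrays stood above the rest, and the other 3 groups overlapped. The dnHIF1a call was lost without dnHIF1a unamputated array 2 (-0.63, limma adjusted p = 0.055) or dnHIF1a amputated array 1 (-0.71, limma adjusted p = 0.0654). The difference of responses did not pass the test (-0.74 ± 0.26, limma adjusted p = 0.158).

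No gene of the 54 was called in the difference of responses, where 2.24% of all probe sets were, 0.884% higher and 1.35% lower. At an unadjusted limma p under 0.05 there were 5 higher and 3 lower (9.26% and 5.56%, beside 9.08% and 8.17% of all probe sets). Beside rrad, the smallest p-values belonged to atp1b2a (0.59 ± 0.18, limma adjusted p = 0.108), atp1b3b, atp2a2b (0.73 ± 0.27, limma adjusted p = 0.174) and camk2d2 (-0.44 ± 0.16, limma adjusted p = 0.175). Of these, atp2a2b was called without WT unamputated array 3 (0.95, limma adjusted p = 0.0344), and was 0.47 and not called without WT unamputated array 1. Across the 54 genes the WT and dnHIF1a responses, which share no arrays, had a Pearson correlation of 0.685 and a Spearman correlation of 0.289, beside 0.578 and 0.464 over all probe sets. These are descriptions across genes, which are not independent.

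The lines were then compared with each other in each state. In unamputated hearts 7 of the 54 genes were higher in dnHIF1a than in WT (13.0%, against 5.82% of all probe sets) and 3 were lower (5.56%, against 5.56%). In amputated hearts 7 were higher (13.0%, against 6.15%) and 0 lower (against 6.75%). At an unadjusted limma p under 0.05, amputated hearts had 10 higher and 1 lower (18.5% and 1.85%, against 13.3% and 13.3% of all probe sets). Unamputated hearts had 9 higher and 4 lower at that threshold (16.7% and 7.41%, against 11.8% and 12.9%). Of all 8793 genes 6.3% were called higher and 6.24% lower before amputation, and 6.77% and 7.43% after it. The genes called higher in both states were pln2, atp2a2a, gja1b, atp1a1b and atp1b1b. By role, 3 of the 13 sodium-potassium pump genes were called higher and 1 lower before amputation, and 3 were called higher and 0 lower after it. Of the 5 SERCA and phospholamban genes 2 were higher in each state, and casq2 was called after amputation and not before it. The median of the 54 was 0.012 before and 0.038 after amputation, beside -0.023 and 0.017 over all probe sets.

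The gene pln2 is named as a phospholamban gene, and phospholamban slows the SERCA pump in mammals. It read 6.68, 6.05 and 6.44 on unamputated and 6.62, 6.22 and 6.59 on amputated WT arrays. On dnHIF1a arrays it read 7.76, 7.45 and 7.72 before and 7.14, 7.21 and 7.34 after amputation, and every dnHIF1a array lay above every WT array. It was 2.38-fold higher in unamputated (1.25 ± 0.15, limma adjusted p = 0.000207) and 1.69-fold higher in amputated dnHIF1a hearts (0.75 ± 0.15, limma adjusted p = 0.00679). Amputation itself gave 0.09 ± 0.15 in WT and -0.41 ± 0.15 in dnHIF1a, neither called (limma adjusted p = 0.718 and 0.117). The dnHIF1a value was called with array weights (-0.42, limma adjusted p = 0.0401), with the replicate number as a block (-0.41, 0.0433) and with only the groups compared (-0.41, 0.0284).

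The pump that phospholamban acts on is encoded in heart muscle by atp2a2a, whose main probe set read 12.77, 12.95 and 12.97 on unamputated and 12.86, 12.92 and 12.66 on amputated WT arrays. It read 13.34, 13.30 and 13.28 and then 13.39, 13.37 and 13.27 on dnHIF1a arrays, all above the WT arrays. The differences were small but tight, with 0.41 ± 0.083 (1.33-fold, limma adjusted p = 0.00653) before and 0.53 ± 0.083 (1.44-fold, limma adjusted p = 0.00148) after amputation. A second probe set of the gene, with a mean of 4.30, was called in no comparison. With the mean of both probe sets the difference was 0.17 (limma adjusted p = 0.157) before and 0.31 (limma adjusted p = 0.0162) after amputation.

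Its paralogue atp2a2b did not share the pattern. It read -0.51 ± 0.19 before (limma adjusted p = 0.106) and 0.22 ± 0.19 after amputation (limma adjusted p = 0.502), and -0.53 ± 0.19 in the WT response (limma adjusted p = 0.0588). Without WT unamputated array 3 the first (-0.73, limma adjusted p = 0.0139) and the last (-0.75, limma adjusted p = 0.0072) were called, as was the last with a repeated quantile normalization (-0.55, limma adjusted p = 0.0466). Without WT unamputated array 1 they were -0.25 and -0.27, and not called. The calcium store gene casq2, of cardiac calsequestrin, read 10.55, 10.69 and 10.31 on unamputated and 10.44, 10.24 and 10.12 on amputated WT arrays, against 10.63, 10.89 and 10.77 and then 10.84, 10.98 and 10.74 on dnHIF1a arrays. It was 1.5-fold higher in amputated dnHIF1a hearts (0.59 ± 0.11, limma adjusted p = 0.00561), and the difference before amputation was 0.25 ± 0.11 (limma adjusted p = 0.207). In the WT response casq2 read -0.25 (limma adjusted p = 0.136) and was called without WT unamputated array 3 (-0.35, limma adjusted p = 0.0496), while it was -0.16 without WT unamputated array 2.

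The SERCA1 genes atp2a1 and atp2a1l, known from fast skeletal muscle, were not called, with 0.35 ± 0.17 and 0.62 ± 0.28 in WT (limma adjusted p = 0.15 and 0.13) and 0.20 and 0.22 in dnHIF1a (0.545 and 0.723). Without WT amputated array 3 the WT values were 0.10 and 0.26, and without dnHIF1a amputated array 3 that of atp2a1l in dnHIF1a was -0.09. For atp2a1 in dnHIF1a, leaving out any single array gave 0.13 to 0.26. The gene atp2a1l read 5.72 on WT amputated array 3 and 5.26 on dnHIF1a amputated array 3, against 4.17 to 4.65 on the other 10. On the same 2 arrays the mean of the 20 skeletal muscle markers, which include atp2a1, was 6.99 and 7.33, against 6.22 to 6.55 elsewhere. The part of other muscle was not tested.

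**Figure D3:**
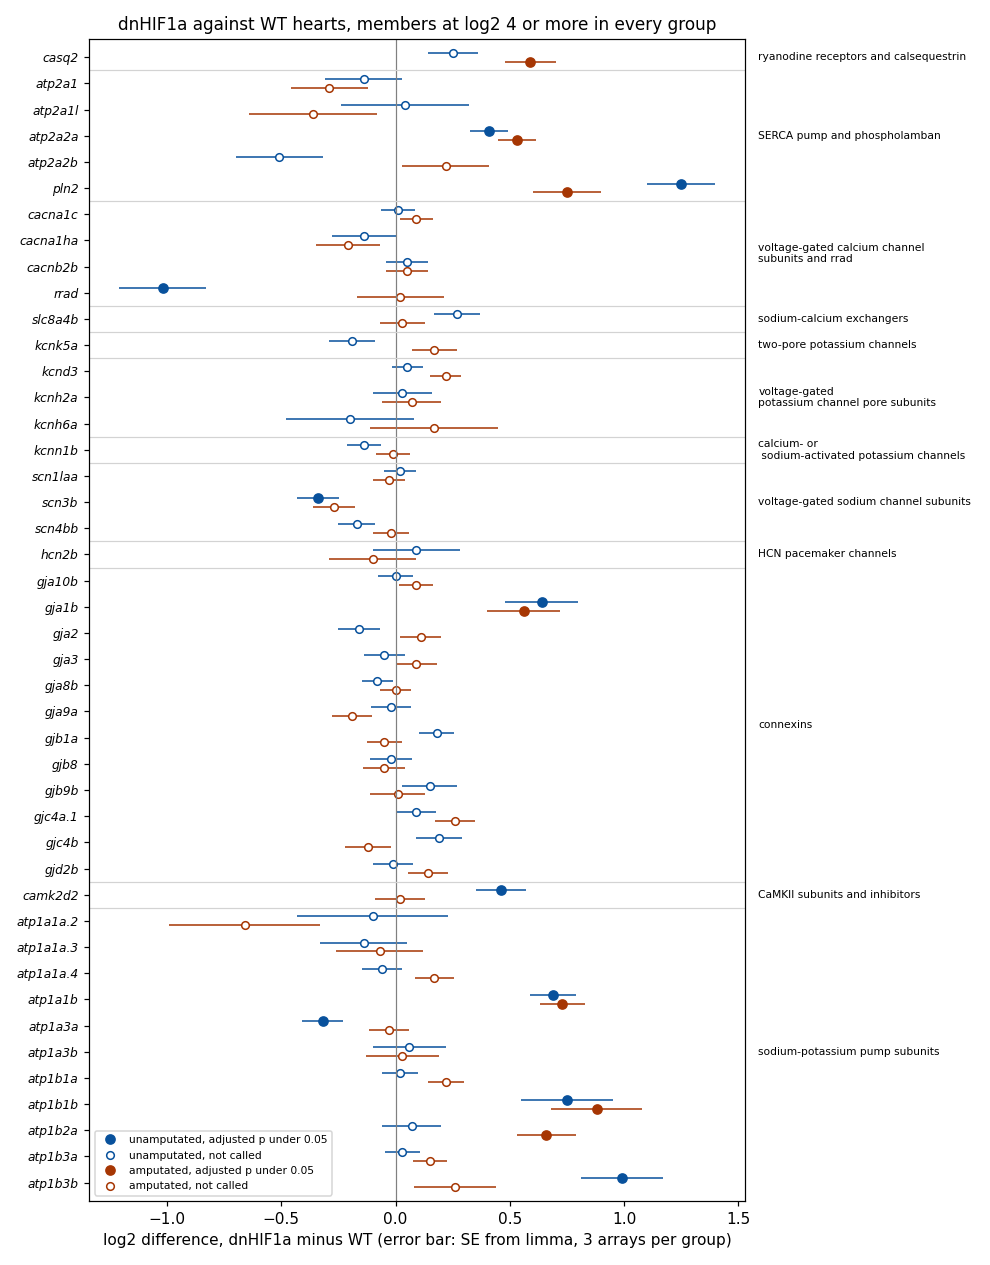
Log2 difference of dnHIF1a minus WT hearts (x axis) for the 44 genes at 4 or more in every group, ordered by role (y axis), in unamputated (blue) and amputated (brown) hearts; filled points have an adjusted p under 0.05 and error bars are the limma SE. Both points of pln2, atp2a2a, gja1b, atp1a1b and atp1b1b are filled and lie between 0.41 and 1.25.

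The sodium-potassium pump pairs a catalytic alpha with a beta subunit, and 13 of the 54 genes encode one or the other. The alpha gene atp1a1b read 5.56, 5.58 and 5.67 on unamputated and 5.49, 5.96 and 5.71 on amputated WT arrays. On dnHIF1a arrays it read 6.38, 6.26 and 6.25 and then 6.45, 6.49 and 6.41. The WT and dnHIF1a arrays formed 2 ranges that did not meet, with a difference of 0.69 ± 0.10 before (1.62-fold, limma adjusted p = 0.000747) and 0.73 ± 0.10 after amputation (1.66-fold, limma adjusted p = 0.000617). Amputation gave 0.12 in WT and 0.15 in dnHIF1a, neither called.

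The beta gene atp1b1b went the same way. It read 5.65, 5.60 and 5.81 on unamputated WT, 5.43, 5.47 and 6.38 on amputated WT, 6.26, 6.54 and 6.52 on unamputated dnHIF1a and 6.83, 6.57 and 6.51 on amputated dnHIF1a arrays. Only WT amputated array 3 came into the dnHIF1a range. The difference was 0.75 ± 0.20 before (limma adjusted p = 0.0302) and 0.88 ± 0.20 after amputation (limma adjusted p = 0.0137). The first call was lost without WT unamputated array 1 (0.74, limma adjusted p = 0.0676) or 2 (0.71, 0.0897) or dnHIF1a unamputated array 2 (0.70, 0.0974) or 3 (0.71, 0.086), and with the erythrocyte covariate (0.67, 0.0797). The second was lost when WT amputated array 1 (0.71, limma adjusted p = 0.0621), WT amputated array 2 (0.73, 0.0528) or dnHIF1a amputated array 1 (0.78, 0.0608) was left out.

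On WT amputated array 3 the alpha genes atp1a1a.2 (6.43, against 4.46 to 4.99 elsewhere) and atp1a1a.3 (5.11, against 4.17 to 4.60) were highest too. The mean of the 19 epithelial markers was 7.20 on that array and 6.30 to 6.81 on the others, and whether the 2 are linked was not tested. In no comparison were atp1a1a.2 to atp1a1a.5 called.

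Of the other beta genes, atp1b3b was 1.99-fold higher in unamputated dnHIF1a hearts (0.99 ± 0.18, limma adjusted p = 0.00355) and read 0.26 ± 0.18 after amputation (limma adjusted p = 0.412). The gene atp1b2a read 8.26, 8.25 and 8.16 and then 7.87, 7.97 and 7.83 on WT arrays, and 8.28, 8.53 and 8.06 and then 8.79, 8.53 and 8.32 on dnHIF1a arrays. In the WT response it read -0.33 ± 0.13 (limma adjusted p = 0.0743), with groups that did not overlap, as for 35.7% of all probe sets. It was called with a repeated quantile normalization (-0.40, limma adjusted p = 0.041), the replicate block (-0.33, 0.0437) and only the groups compared (-0.33, 0.0284). The lines overlapped before amputation (0.07 ± 0.13, limma adjusted p = 0.807) and not after it (0.66 ± 0.13, 1.58-fold, limma adjusted p = 0.00501). Of its 3 other probe sets 1 was also called after amputation (0.61 ± 0.10, limma adjusted p = 0.00232), and the mean of all 4 gave 0.42 (limma adjusted p = 0.00522).

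The beta gene atp1b1a read 12.10 to 12.52 on all arrays, with -0.18 in WT, 0.02 in dnHIF1a, 0.02 between unamputated and 0.22 between amputated lines, none called (limma adjusted p = 0.124, 0.907, 0.933 and 0.0938). The last was called with array weights (limma adjusted p = 0.0437) and without WT unamputated array 1 (0.0372). A second probe set of atp1b1a, with a mean of 11.93, read -0.06 in both responses. It read -0.02 between the lines in both states, and none of these was called. The alpha3 gene atp1a3a was lower in amputated than in unamputated WT hearts (-0.27 ± 0.088, limma adjusted p = 0.0436) and lower in unamputated dnHIF1a than in unamputated WT hearts (-0.32 ± 0.088, limma adjusted p = 0.0322). Both comparisons use the unamputated WT arrays, at 4.51, 4.68 and 4.84, against 4.28 to 4.47 on the other 9. The first call held only without WT unamputated array 1 or dnHIF1a amputated array 2 and was lost without any other single array (limma adjusted p up to 0.151). It was also lost with a repeated quantile normalization (limma adjusted p = 0.0544), median centring (0.052) and only the groups compared (0.123). The second was lost without WT unamputated array 2 or 3 or any unamputated dnHIF1a array (limma adjusted p up to 0.108). Only the groups compared (limma adjusted p = 0.0867) and the mean of both probe sets (0.0691) ended the second call too. The other probe set of atp1a3a, with a mean of 3.61, was called in no comparison. Its paralogue atp1a3b read -0.32 ± 0.16 in WT and -0.35 ± 0.16 in dnHIF1a, neither called. The beta genes atp1b2b and atp1b3a were called in no comparison.

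Zebrafish carry many genes as copies a and b from an ancient genome duplication. Of the 4 such pairs measured at 4 or more (atp2a2a and atp2a2b, atp1b1a and atp1b1b, atp1b3a and atp1b3b, atp1a3a and atp1a3b), no pair had both copies called in the same comparison. Of all probe sets 2.24% to 22.8% were called per comparison, so with 4 pairs this count does not show that copies behave differently. The differences between copies were not tested.

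Beyond the pumps, camk2d2, a gene of the delta form of CaMKII, read 8.44, 8.81 and 8.79 on unamputated WT and 9.25, 9.20 and 8.96 on unamputated dnHIF1a arrays. It was 1.37-fold higher in the latter (0.46 ± 0.11, limma adjusted p = 0.0196), and its other probe set was called as well (0.67 ± 0.13, limma adjusted p = 0.00407). The call on the main probe set was lost without WT unamputated array 1 (0.34, limma adjusted p = 0.0595) or dnHIF1a unamputated array 1 (0.40, 0.0851) or 2 (0.42, 0.0717). Its response was 0.20 in WT and -0.24 in dnHIF1a, and the amputated lines differed by 0.02, none called. Its relative camk2d1 was called higher in the WT response, from 3.23 to 3.37 to 3.46 to 3.98 (limma adjusted p = 0.0143), too low for a size, and not without WT amputated array 1 (limma adjusted p = 0.0614).

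The connexin gene gja1b was 1.55-fold higher in unamputated (0.64 ± 0.16, limma adjusted p = 0.0204) and 1.47-fold higher in amputated dnHIF1a hearts (0.56 ± 0.16, limma adjusted p = 0.0367). The first call was lost without WT unamputated array 2 (0.49, limma adjusted p = 0.0788) or 3 (0.57, 0.0654) or dnHIF1a unamputated array 1 (0.57, 0.0837) or 3 (0.64, 0.0536). The second was lost without WT amputated array 1 (0.55, limma adjusted p = 0.0965), 2 (0.49, 0.114) or 3 (0.63, 0.0505), without array 1 (0.50, 0.126), 2 (0.55, 0.101) or 3 (0.62, 0.0507) of the amputated dnHIF1a group, and with the erythrocyte covariate (0.53, 0.154). The gene scn3b was lower in unamputated dnHIF1a hearts (-0.34 ± 0.092, limma adjusted p = 0.0304), a call lost without WT unamputated array 1 (-0.33, limma adjusted p = 0.0713), 2 (-0.34, 0.0709) or 3 (-0.36, 0.053) and without dnHIF1a unamputated array 1 (-0.36, 0.0699), 2 (-0.32, 0.0999) or 3 (-0.35, 0.0705). That call was also lost with array weights (-0.34, limma adjusted p = 0.0567) and with the erythrocyte covariate (-0.35, 0.0547). After amputation scn3b read -0.27 ± 0.092 (limma adjusted p = 0.0796), and was called with array weights (-0.33, 0.0296) and without WT amputated array 3 (-0.34, 0.0454).

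Between unamputated lines, the smooth muscle and bulbus markers acta2 (1.74 ± 0.23, limma adjusted p = 0.000374) and rgs5a (2.35 ± 0.22, limma adjusted p = 2.16e-05) were higher in dnHIF1a hearts, with tagln and mylka. Their list mean was 5.87 to 6.25 on unamputated WT, 6.74 to 6.92 on amputated WT, 6.89 to 7.34 on unamputated dnHIF1a and 7.63 to 7.74 on amputated dnHIF1a arrays. The epicardium and fibroblast list, of which 6 of 12 were higher in unamputated and 3 lower in amputated dnHIF1a hearts, read 7.61 to 7.78 on unamputated WT and 8.20 to 8.34 on unamputated dnHIF1a arrays. The macrophage and leukocyte list read 7.67 to 7.78 on unamputated WT, 6.84 to 7.00 on unamputated dnHIF1a, 8.31 to 8.64 on amputated WT and 7.64 to 8.01 on amputated dnHIF1a arrays. Of the 13 cardiomyocyte markers 1 was higher and 3 were lower in unamputated dnHIF1a hearts (7.69% and 23.1%, beside 5.82% and 5.56% of all probe sets). In amputated ones 2 were higher and 0 lower (15.4% and 0%, beside 6.15% and 6.75%). The part of these lists in the genotype differences of gja1b and of the pump and store genes was not tested.

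**Figure D4:**
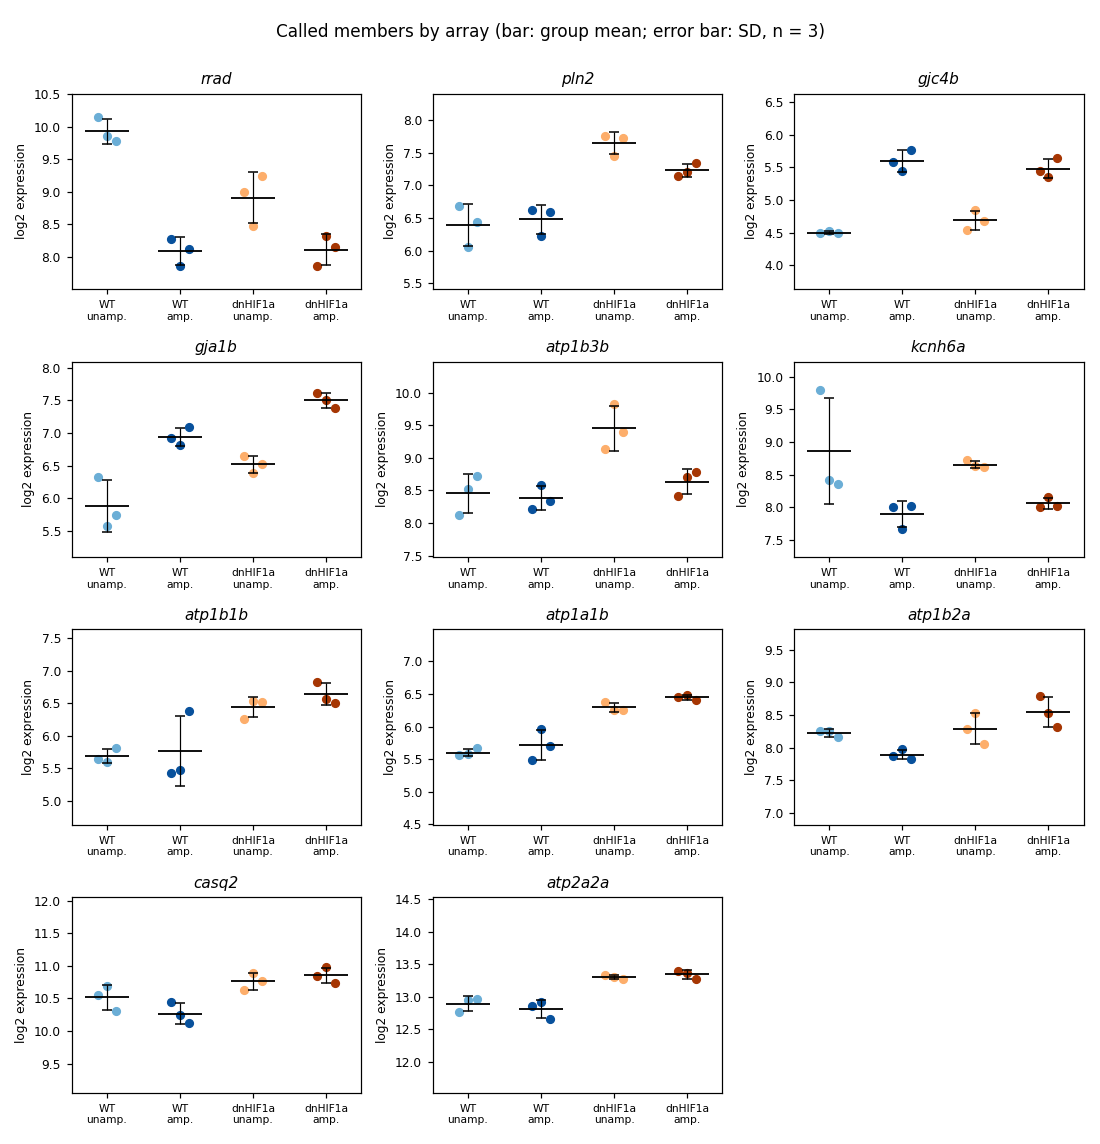
Log2 expression (y axis, 3 log2 units high in every panel) on each array by group (x axis) for the 11 genes with a called difference of at least 0.5; points are arrays, bars group means and error bars SD, n = 3. The panel of rrad shows unamputated WT arrays at 9.78 to 10.15 above all others, and that of pln2 shows all dnHIF1a arrays (7.14 to 7.76) above all WT arrays (6.05 to 6.68).

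A list of 149 partner genes of the same processes outside the symbol rule had 59 measured members. In WT 4 rose and 11 fell (median -0.08), which is 6.78% and 18.6% beside 11% and 11.8% of all probe sets. In dnHIF1a 2 rose and 7 fell (median -0.003), which is 3.39% and 11.9% beside 5.66% and 4.09%. Between unamputated lines 7 were higher and 4 lower in dnHIF1a (11.9% and 6.78%, beside 5.82% and 5.56%), and between amputated lines 6 and 4 (10.2% and 6.78%, beside 6.15% and 6.75%). Of all 8793 genes, taken like the partners at 1 probe set each, 11.7% rose and 14.5% fell in WT, and 5.83% and 5.13% in dnHIF1a. Between unamputated lines 6.3% of all genes were higher and 6.24% lower, and between amputated lines 6.77% and 7.43%. The gene rem1, of a GTPase in the same family as rrad, fell in WT (-0.77 ± 0.13, limma adjusted p = 0.00126) and in dnHIF1a (-0.47 ± 0.13, limma adjusted p = 0.0375). Its dnHIF1a call was not among those checked under the alternative runs. The gene rcan3, of a regulator of the calcium-dependent phosphatase calcineurin, fell by 1.01 ± 0.23 in WT (limma adjusted p = 0.00757) and by 1.69 ± 0.23 in dnHIF1a (limma adjusted p = 0.000588).

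The gene of the sarcoplasmic reticulum potassium channel TRIC-A, tmem38a, fell too (-0.47 ± 0.11 in WT, limma adjusted p = 0.0103, and -0.49 ± 0.11 in dnHIF1a, limma adjusted p = 0.0153), as did cav3, of the muscle caveolin, in WT (-0.46 ± 0.068, limma adjusted p = 0.000571). Those that rose in WT were fxyd6l, of a family of small pump modulators (1.11 ± 0.16, limma adjusted p = 0.00046), s100a10b (0.75 ± 0.13), the plasma membrane calcium pump gene atp2b1a (0.51 ± 0.13) and the channel kinase gene trpm7 (0.21 ± 0.065). With the erythrocyte covariate these 8 WT calls were lost, and atp2b1a (0.06), s100a10b (0.42), rem1 (-0.35) and tmem38a (-0.26) moved by over 1.5 times.

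In dnHIF1a the adhesion gene cdh2 (0.43 ± 0.11, limma adjusted p = 0.0328) and the chloride channel gene ano1a (0.53 ± 0.14, limma adjusted p = 0.0383) rose. The store-operated channel gene orai1a (-0.33 ± 0.085, limma adjusted p = 0.0305) and asph (-0.50 ± 0.13, limma adjusted p = 0.0334) fell. Each of these 4 calls was lost without several single arrays, mostly of the dnHIF1a line, with limma adjusted p up to 0.129 for cdh2, 0.152 for ano1a, 0.098 for orai1a and 0.132 for asph. That of tmem38a in dnHIF1a was lost without dnHIF1a unamputated array 2 (-0.47, limma adjusted p = 0.0552) or dnHIF1a amputated array 1 (-0.49, 0.0538) or 3 (-0.45, 0.0644). In WT, atp2b1a was not called without WT amputated array 3 (0.41, limma adjusted p = 0.0611), and trpm7 was not called if the array left out was number 1 or 3 of either WT group, or number 2 or 3 of either dnHIF1a group (limma adjusted p up to 0.117). The mean of all probe sets of the gene gave 0.11 for trpm7 in WT (limma adjusted p = 0.198) and 0.34 for ano1a in dnHIF1a (0.0671), neither called. A repeated quantile normalization (0.15, limma adjusted p = 0.138) and the trended and robust prior (0.21, 0.072) also ended the trpm7 call.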

How the data were processed

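Expression was measured on 12 Affymetrix arrays, with 3 in each group; per the labels' protocols, total RNA was extracted with Trizol and 200 ng was amplified and labelled. The authors deposited log2 values, 1 for each probe set. RMA and limma are the tools named, with neither role nor version, per the submitters' processing notes. The table holds 15617 probe sets, of which 115 controls were dropped. Of the remaining, 10795 of 15502 have a single gene in the platform annotation. For 10711 of these the symbol was updated by matching Entrez identifiers with RefSeq's gene table. All 12 arrays entered 1 limma 3.58.1 fit in R 4.3.3 with 4 group means (8 residual and 4.46 prior degrees of freedom). Tests were two-sided, and p-values of each of the 5 comparisons were Benjamini-Hochberg adjusted over the whole table. The fit was tested on simulated data. No filter was applied. The counts and most named values were also computed with quantile normalization run again on the table, centring on array medians, and the dimmest probe sets dropped. Further runs used limma's trended and robust prior, array weights, a fit of the compared groups alone and array number as a block. Others used erythrocyte marker mean as covariate, gene means over probe sets, and single arrays left out. The number of arrays limits the precision.

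The genes and lists were chosen with earlier results of these data known. Named genes are all called genes with group means of 4 or more (up to 12 per direction), the 5 smallest p-values in the difference of responses, the 16 measured of 52 listed core symbols, up to 4 called partners per direction in each response, and up to 5 pairs of copies. In the core list cx43, another name of gja1b, counts as an unmeasured symbol of its own. Arrays with the same number deviated together by correlations of -0.191 to 0.133, so the number was used as a block only as an alternative. Sequences were not analysed here.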

Additional observations from a re-analysis of the deposited data

Results flagged for a closer look

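None of the 54 genes was called by limma's test of the difference between the lines in the response to amputation. Among their 59 partners 1 was (1.69%, beside 2.24% of all probe sets), so this share does not stand above the background. The partner is fxyd6l, of a family of small sodium-potassium pump modulators, at -1.13 ± 0.23 (dnHIF1a minus WT, limma adjusted p = 0.0235). Its group means were 7.17 before and 8.28 after amputation in WT, and 7.83 and 7.81 in dnHIF1a. The response was thus called in WT (1.11 ± 0.16, limma adjusted p = 0.00046) and not in dnHIF1a (-0.02 ± 0.16, 0.962). The call of the difference was lost without WT amputated array 1 (-1.05, limma adjusted p = 0.0637), dnHIF1a unamputated array 1 (-1.15, 0.0523) or 2 (-1.08, 0.0638), or dnHIF1a amputated array 1 (-1.14, 0.0616) or 2 (-1.10, 0.0673), and with the erythrocyte covariate (-1.01, 0.19). Groups of 3 arrays are too small for a test of single outlying arrays.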

How the results depend on the processing

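Of 208 recomputed counts of called genes 187 lay within 1.5 times the reported count, and no named value changed direction while called. Genes lower in the WT response numbered 3 with only the groups compared and 2 with the erythrocyte mean as covariate, against 6. Of all probe sets, 15.1% and 4.28% were called in either direction in these runs, against 22.8%. Genes lower in the dnHIF1a response numbered 5 with only the groups compared, against 3. That fit called 12.6% of all probe sets in this response in either direction, against 9.75%. That fit also lost the WT calls of camk2d1 (limma adjusted p = 0.0525), gjd2b (0.0968) and scn4bb (0.0895). Between unamputated lines it lost those of camk2d2 (limma adjusted p = 0.0681) and gja1b (0.0788). In the difference of responses 1 gene, rrad, was called higher with a repeated quantile normalization, and with array weights 1 gene, scn3b, was lower in amputated dnHIF1a hearts, each against 0. Of all probe sets, 2.48% were called in the first case and 16.5% in the second, against 2.24% and 12.9%. With the covariate 1 was lower in unamputated dnHIF1a hearts, against 3, and 9.68% of all probe sets were called there in either direction, against 11.4%. Leaving out single arrays gave 2 to 4 higher and 2 to 8 lower in WT, 2 to 2 and 0 to 4 in dnHIF1a, 0 to 1 and 0 to 0 in the difference of responses, 5 to 7 and 1 to 3 between unamputated lines and 5 to 8 and 0 to 1 between amputated lines. Over these runs the share of all probe sets called ran from 16.8% to 22.2% in WT and 5.86% to 11.4% in dnHIF1a. It ran from 0.961% to 3.81% in the difference of responses, 7.62% to 11.3% between unamputated and 7.34% to 14.9% between amputated lines. With the replicate number as a block (replicate block), the counts were 3 higher and 6 lower in WT, 2 and 4 in dnHIF1a, 7 and 2 between unamputated and 7 and 0 between amputated lines, and 0 in the difference of responses. In this run 21.3% of all probe sets were called in WT, 8.64% in dnHIF1a and 2.01% in the difference of responses. Between the lines the shares were 10.7% in unamputated and 12% in amputated hearts. Of the 54 genes 16.7% were called in WT, 11.1% in dnHIF1a, 16.7% between unamputated and 13% between amputated lines. The block ended the calls of atp1a3a in WT (limma adjusted p = 0.0655) and between unamputated lines (0.0538), and those of the partners trpm7 (0.0616) and ano1a (0.061), and added atp1b2a in WT (0.0437) and pln2 in dnHIF1a (0.0433). Of 46 calls of named genes and partners 15 held under every alternative run. These are gja1b and gjc4b in both responses, rrad in WT and between unamputated lines, rcan3 in dnHIF1a, pln2 and atp1a1b between lines in both states, atp1b3b between unamputated lines, and atp2a2a, casq2 and atp1b2a between amputated lines. The cause of the other losses was not tested. With fewer arrays or only the groups compared, fewer samples estimate the spread. The values carry no background, so changes at low levels could not be sized.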
